A study of Mus musculus with 2 samples.

Results

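Voltage-gated and related ion channels were followed on 2 mouse expression arrays, 1 from tissue labelled cortex of a wild type embryo and 1 from that of a Sox11(-/-) littermate, both at E17.5, late in gestation. Both embryos came from a mating of Sox11(+/-) parents on a background of C57BL/6 and 129. Sox11 is a SoxC transcription factor gene active in young neurons, and the null genotype is a germline loss in every cell rather than in the cortex alone. The members are the probe sets whose platform annotation names exactly 1 gene with a symbol that starts with Kcn, Scn, Cacn or Hcn, without Scnm1, the Scnn genes and 1 further Kcn gene. The rule uses names, not signals. It found 252 of the 45101 probe sets. Of these, 244 belong to 117 channel genes (80 potassium, 11 sodium, 22 calcium, 2 HCN and 2 muscle-type calcium channel genes) out of 18193 genes in all, and 8 belong to 3 noncoding RNAs named after channel genes, which were kept apart. Scn4a, the sodium channel of skeletal muscle, was not analysed here.

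Ion channels set the electrical behaviour of a neuron. Voltage-gated sodium channels carry the upstroke of the action potential, potassium channels end it and hold the resting potential, calcium channels couple depolarisation to secretion and gene expression, and HCN channels carry a cation current that opens on hyperpolarisation. Each voltage-gated channel pairs a pore-forming subunit with auxiliary subunits that change its trafficking and gating. In the cortex late in gestation, neurons that have migrated acquire these currents step by step. Skeletal muscle uses its own subunits, the pore Scn4a for excitation and the pore Cacna1s with the auxiliary subunit Cacng1 for excitation-contraction coupling.

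Each genotype has 1 array and no replicate, so no value has an error between embryos, no test was run, and each difference describes 2 libraries. Signals are linear intensities in arbitrary units. Differences are log2, Sox11 null minus wild type, after both arrays were set to the same median difference over measured genes. For each gene the brightest probe set by mean log2 signal was used, and the gene counted as measured when its signal reached the array median over all non-control probe sets (177.5 in wild type, 177.4 in the null library) on at least 1 array. Signals of different probe sets depend on their probes, so levels of genes are compared only within a probe set. The labels give cortex, but both libraries held skeletal muscle and epidermis signals beside those of cortical neurons, so the RNA was not of cortical cells alone. All 10 skeletal muscle markers were above the median of both arrays (summed signal 138458 in the wild type library and 140945 in the null). So were all 6 general neuron markers (29728 and 29264) and 4 of 5 cortical projection neuron markers (7355 and 6653), the exception being Slc17a7. Heart markers were not measured, and Myh6, Myl7 and Tnni3 lay below the 25th percentile of both arrays. Epidermis markers were present too, with a summed signal of 37963 in the wild type library and 20420 in the null. Not all 6 were lower, as Krt5 gave 4461 and 4737. The part of epidermis in the channel values was not tested. The 6 Sox11 probe sets kept 16.4% to 47.8% of the wild-type signal in the null library. The labels do not say which of them lie in the deleted part. In bulk tissue, fewer cells of a type and less RNA per cell cannot be told apart. Xist, which marks an inactive X chromosome, was at 17505 in the wild type library and 155 in the null. The 2 embryos thus appear to differ in sex, and sex and genotype cannot be told apart for any difference given here.

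Channel genes as a group stayed close to 0. Of the 117 genes, 74 (63.2%) were measured, against 68.1% of all 18193 genes. Of these 74, 3 were at least 1.5-fold lower in the null library (4.05%, against 3.24% of the 12390 measured genes) and 3 were at least 1.5-fold higher (4.05%, against 3.07%). Together these are 6 of 74 genes, against 6.3% of all measured genes. Both shares lie near the background. Of the 74 genes 65 reached the median on both arrays, 5 in wild type only and 4 in the null library only. The 5 (Kcne2, Kcnh8, Kcnj6, Kcnn1 and Scn7a) could pass only because they were lower in the null library. The 4 (Cacng3, Hcn3, Kcna2 and Kcnip2) could pass only because they were higher there. Positive differences were counted for 38 channel genes and negative ones for 36, with a median of 0.019 and quartiles of -0.16 and 0.22, beside a median of 0 and quartiles of -0.17 and 0.17 over all measured genes. Only Hcn3 passed 2-fold, higher in the null library, and background shares at that size were 0.573% higher and 0.985% lower. Because differences scatter more at low signal, the measured genes were also split into 3 groups of equal size by the signal of their probe sets, which says nothing of the order of gene levels. The central 95% of differences of all genes ran from -0.94 to 0.82 in the group of lowest signal and from -0.46 to 0.45 in that of highest signal, and 3 channel genes (Hcn3, Kcna6 and Cacna1g) were outside the range of their own group, where by construction 5.04% of all genes are. The log2 signals of the 74 genes in the 2 libraries had a Pearson r of 0.933 across genes, which are not independent replicates.

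**Figure D1:**
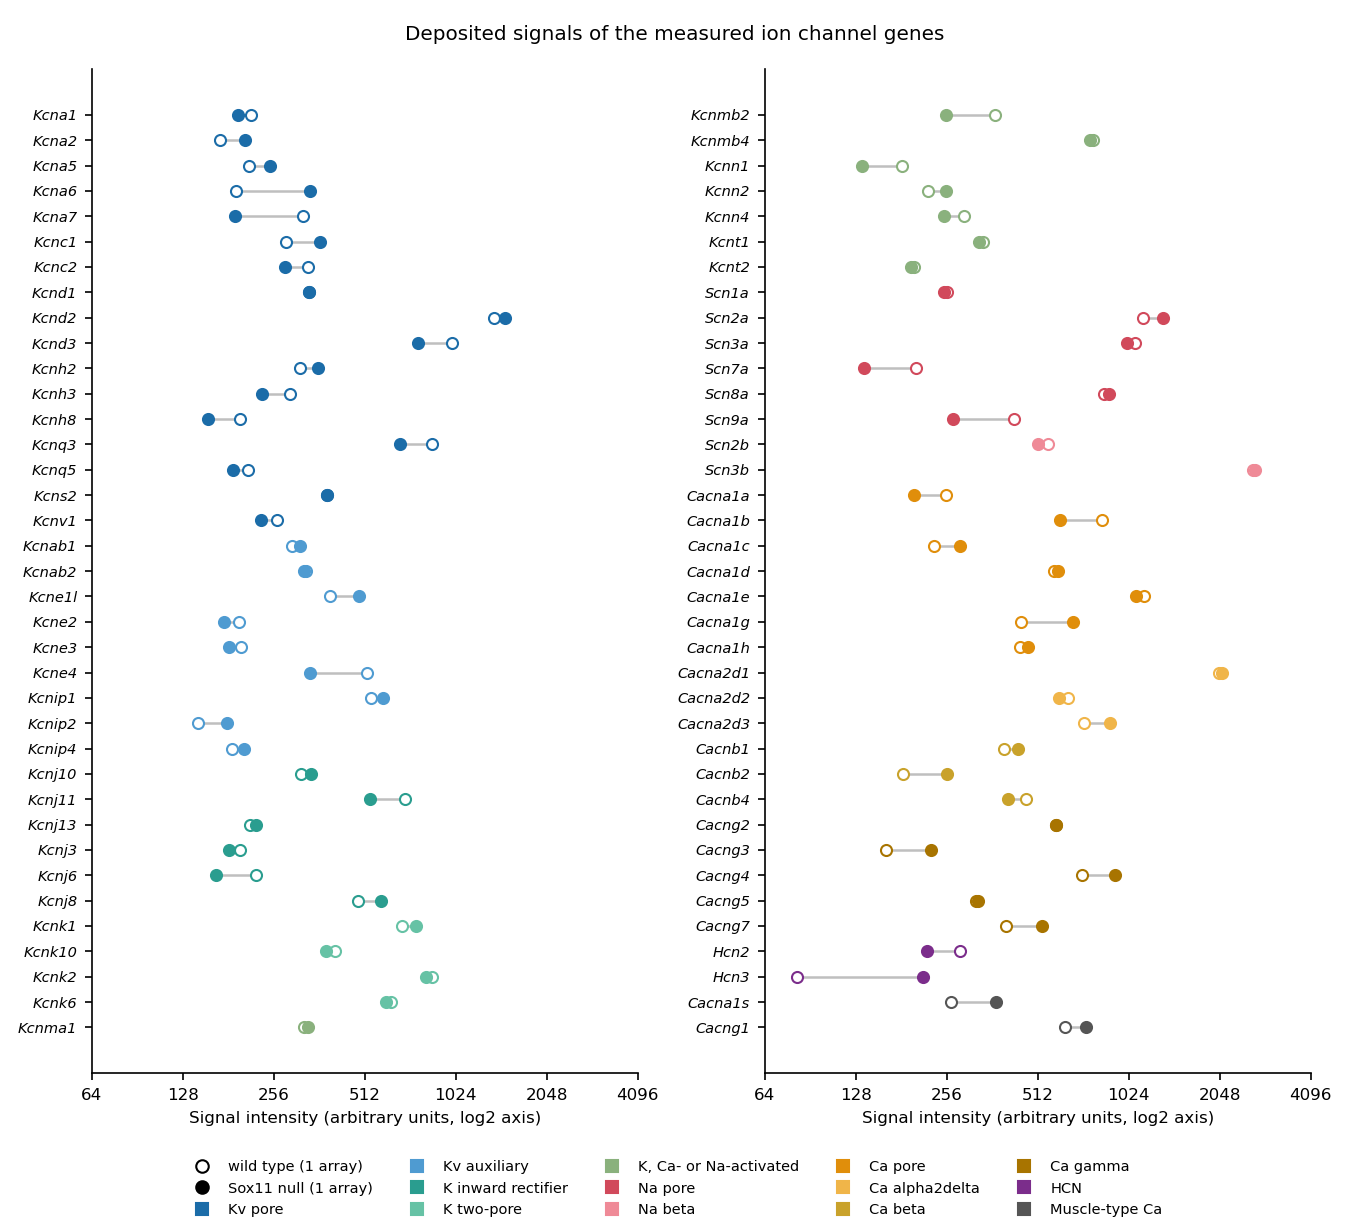
Signal intensity (arbitrary units, log2 axis) of the brightest probe set of each of the 74 measured channel genes, wild type as open and Sox11 null as filled circles, 1 array each, coloured by family. Most pairs nearly touch, while Hcn3 (81.9 and 213), Kcna6 (192 and 336) and Kcna7 (319 and 191) are pulled apart. Distances are to be read within a gene only.

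The lower side held Kcna7, Scn9a and Kcne4. In each pair of signals the wild type value comes first, and the log2 difference follows in brackets. Kcna7, a Shaker-type potassium channel pore gene known from skeletal and heart muscle, gave a signal of 319 for the wild type and 191 for the null embryo, a log2 difference of -0.72. Scn9a, the sodium channel of peripheral sensory neurons, gave 429 and 268 (-0.66) with an _x_at probe set, a type whose probes can match other transcripts. Its other measured probe set gave 264 and 209 (-0.32), and the difference was -0.34 without the _s_at and _x_at types, -0.49 with the mean of the measured probe sets and -0.022 with the mean of all 5, all inside 1.5-fold. Kcne4, a small membrane protein that inhibits several potassium channels, gave 523 and 338 (-0.61) with its only probe set.

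The higher side held Hcn3, Kcna6 and Cacna1g. Hcn3, a hyperpolarisation-activated cation channel gene, gave 81.9 and 213 with its only probe set, a difference of 1.40 or 2.64-fold. Its wild-type signal was below the array median, and with all signals below the median raised to it the difference was 0.28. Kcna6, another Shaker-type pore gene, gave 192 and 336 (0.83). The other measured probe set of Kcna6 gave 142 and 188 (0.42) and the unmeasured one 127 and 155 (0.31). The former reached the array median in the null library only, and so could be measured only by being higher there. The latter was below the median on both arrays. The mean over all probe sets of Kcna6, 0.52, was inside 1.5-fold. Cacna1g, a low-voltage-activated T-type calcium channel pore gene, gave 452 and 670 (0.59), at the edge of the 1.5-fold threshold. It lay inside the threshold without centring (0.57), with quantile normalisation (0.56), with the loess trend removed (0.54) and without the _s_at and _x_at types (0.57).

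Upstream sequence is shown for the 4 of these genes with an entry in RefSeq's promoter table (GRCm38.p6), Kcna7, Scn9a and Kcne4 of the lower and Kcna6 of the higher side, and for the muscle-type gene Cacna1s as a contrast. Each line holds the 250 bases before the annotated start of the gene, read 5′ to 3′ on the strand of the gene. Capitals mark the letters ACAAAG or ACAATG, cores bound by SOX proteins, or CAGCTG, an E-box preferred by muscle bHLH factors, on either strand (CTTTGT is ACAAAG read on the other strand).
Kcna7: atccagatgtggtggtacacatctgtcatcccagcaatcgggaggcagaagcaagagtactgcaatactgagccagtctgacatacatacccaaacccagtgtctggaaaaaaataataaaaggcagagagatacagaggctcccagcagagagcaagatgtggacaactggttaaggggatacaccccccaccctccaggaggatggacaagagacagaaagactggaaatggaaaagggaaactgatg
Scn9a: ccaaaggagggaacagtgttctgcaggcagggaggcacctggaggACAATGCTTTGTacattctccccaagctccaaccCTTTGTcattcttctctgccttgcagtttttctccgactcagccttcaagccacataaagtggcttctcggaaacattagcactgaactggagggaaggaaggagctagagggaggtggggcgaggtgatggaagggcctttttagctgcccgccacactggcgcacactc
Kcne4: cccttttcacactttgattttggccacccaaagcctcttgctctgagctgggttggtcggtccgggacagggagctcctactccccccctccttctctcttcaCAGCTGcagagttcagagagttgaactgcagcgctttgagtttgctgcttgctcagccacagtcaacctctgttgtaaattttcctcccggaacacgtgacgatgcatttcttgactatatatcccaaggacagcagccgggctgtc
Kcna6: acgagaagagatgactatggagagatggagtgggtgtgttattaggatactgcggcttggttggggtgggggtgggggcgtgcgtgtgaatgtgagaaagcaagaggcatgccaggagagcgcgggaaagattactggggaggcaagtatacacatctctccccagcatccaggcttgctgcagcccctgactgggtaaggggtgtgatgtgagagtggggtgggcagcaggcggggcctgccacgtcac
Cacna1s: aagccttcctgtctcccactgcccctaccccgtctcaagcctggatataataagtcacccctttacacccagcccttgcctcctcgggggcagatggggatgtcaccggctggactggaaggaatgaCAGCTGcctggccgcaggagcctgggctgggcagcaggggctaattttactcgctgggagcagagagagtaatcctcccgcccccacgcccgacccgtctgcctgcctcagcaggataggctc
Scn9a lies at chr2:66634963-66635212 on the minus strand and holds 3 SOX cores, which begin at positions -205, -199 and -171 from the start. Kcne4 (chr1:78816661-78816910, plus strand) and Cacna1s (chr1:136052561-136052810, plus strand) hold 1 CAGCTG each, at -147 and -123. Kcna7 (chr7:45405710-45405959, plus strand) and Kcna6 (chr6:126740675-126740924, minus strand) hold none of these letters in this window. Over 124 windows of 300 bases (250 before to 50 after the start) of 89 channel genes, ACAAAG or ACAATG was found in 21.8% and CAGCTG in 29.8%, against 28.6% and 16.3% of all 32851 windows. The channel windows had a median GC content of 58%, against 52.7% over all windows. A match of letters is a description and not a binding site.

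Potassium channel genes, the largest family, centred on 0. Of 80 genes 44 were measured, with 2 at least 1.5-fold lower, 1 higher and 41 within 1.5-fold. Their median was -0.017, and 25 of 44 were below 0, beside 6195 of all 12390 measured genes. Among the 25, Kcne2, Kcnh8, Kcnj6 and Kcnn1 could be measured only by being lower in the null library. On the other side, Kcna2 and Kcnip2 could be measured only by being higher there. The voltage-gated pore genes had 15 of 17 within 1.5-fold and a median of -0.12. They include the A-type channel genes of the Kv4 group. Kcnd2, the dendritic A-type channel of pyramidal neurons, gave 1369 and 1494 (0.15), and Kcnd3 gave 994 and 770 (-0.35). With the mean over all 4 probe sets of Kcnd3, of which 1 was measured, its difference was 0.15. Kcnq3, a subunit of the M-current that restrains repetitive firing, gave 854 and 671 (-0.33), and the genes of the fast-spiking currents, Kcnc1 and Kcnc2, differed by 0.39 and -0.23, although 1 of the 3 measured probe sets of Kcnc1 gave -0.19. Kcna1, whose product sits along axons, gave 216 and 196 (-0.12) with its measured probe set, and its 3 unmeasured probe sets ranged from -0.71 to -0.47. The silent subunit gene Kcns2 was level, at 385 and 385.

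Of 9 measured auxiliary genes 8 were within 1.5-fold, with a median of 0.11. Kcnip1, a calcium-binding partner of Kv4 channels, gave 537 and 588 (0.15), and the X-linked Kcne1l gave 394 and 490 (0.33). The X-linked pore gene Kcnd1 was at 335 and 336. Xist differed between the libraries (17505 and 155), and the part of sex in the X-linked values was not tested. All 6 measured inward rectifiers were within 1.5-fold (median -0.014). They included Kcnj11 at 695 and 531 (-0.37), the pore of ATP-sensitive channels in muscle and endocrine cells, and Kcnj8 at 486 and 580 (0.27), the pore of such channels in vascular cells. All 4 measured leak channels of the Kcnk type were between -0.076 and 0.17, with Kcnk2, a mechanosensitive channel, at 856 and 814 (-0.052) and Kcnk1 at 681 and 754 (0.17). All 8 measured calcium- or sodium-activated channel genes were within 1.5-fold, 6 of them below 0 (median -0.017). Among the 6, Kcnn1 could be measured only by being lower in the null library. Kcnmb4, the neuronal beta subunit of BK channels, was at 780.1 and 766 (-0.0069), and Kcnt1, a sodium-activated channel, at 338 and 328 (-0.022). Kcnmb2 lay lowest at 369 and 254 (-0.52). The other measured probe sets of Kcnt1 and Kcnmb2 gave 0.20 and -0.15.

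Sodium channel genes of central neurons differed by at most 0.24 by their brightest probe sets, while Scn7a and Scn9a were lower in the null library. Of 11 sodium channel genes 8 were measured, with a median of -0.042. Scn2a, an early pore gene of excitatory axons, gave 1143 and 1335 (0.24). Scn3a, prominent in the embryonic brain, gave 1071 and 1009 (-0.066). Scn8a, the pore of mature axon initial segments and nodes, gave 849 and 879 (0.069), and Scn1a, the pore gene of many interneurons, gave 258 and 251 (-0.019). The beta subunits, adhesion proteins that tune the pores, gave 2642 and 2673 for Scn3b (0.037) and 553 and 512 for Scn2b (-0.090), while Scn4b was not measured at 158 and 153.

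Scn7a, a sodium-sensing relative found in glia and sensory neurons, gave 203 and 136 (-0.55) with one probe set and 185 and 123 (-0.57) with another, just inside 1.5-fold in both. With Scn9a it lay below the central pore genes. Both Scn7a probe sets, and the marker gene Avil, reached the array median in wild type only. They could thus be measured only by being lower in the null library. Of 5 sensory ganglion neuron markers on the arrays 4 were measured, 1 of them (Avil) at least 1.5-fold lower and 3 within 1.5-fold. Of all measured genes 3.24% were at least 1.5-fold lower. The summed signal of the list was 2024 in wild type and 1593 in the null, with Avil at 264 and 141 (-0.88), Prph at 415 and 313 (-0.38), Isl1 at 1073 and 864 (-0.29) and Pou4f1 at 189 and 203 (0.12). None of these markers was at the floor on both arrays. Their part in the Scn7a and Scn9a values was not tested. The sensory neuron pore genes Scn10a (48.1 and 63.8) and Scn11a (118 and 143) were not measured.

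Calcium channel genes lay slightly above 0 by their brightest probe sets, with 13 of 18 measured genes positive (72.2%, against 50% of all measured genes). Their median was 0.087, and 17 were within 1.5-fold. Cacng3, among the 13, could be measured only by being higher in the null library. Also among the 13, Cacna1c, Cacng4, Cacng2 and Cacnb1 each had another measured probe set below 0 (-0.35, -0.49, -0.18 and -0.0039). Of the genes below 0, Cacna1a and Cacna1b each had a measured probe set above 0. The measured high-voltage-activated pore genes were all within 1.5-fold, and for Cacna1b, Cacna1a and Cacna1c the measured probe sets disagreed in direction. Cacna1b, the N-type channel of presynaptic terminals, gave 837 and 608 (-0.44), but its other 2 measured probe sets gave -0.17 and 0.20. Cacna1a, the P/Q-type channel that takes over this role at many synapses, gave 255 and 199 (-0.34) with one probe set and 192 and 257 (0.44) with the other. Cacna1e, the R-type pore gene, gave 1154 and 1079 (-0.076). The L-type pore genes Cacna1c and Cacna1d gave 233 and 283 (0.30, against -0.35 with the other probe set of Cacna1c) and 581 and 599 (0.065), and the T-type gene Cacna1h gave 447 and 475 (0.11) beside 0.59 for Cacna1g. Cacna1f, the retinal L-type gene, was not measured (141 and 110), and neither was any of 4 retina markers.

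Auxiliary calcium channel genes were mostly above 0. Cacna2d1, an alpha2delta subunit that promotes surface delivery and binds gabapentin, gave 2031 and 2082 (0.056), and Cacna2d3 gave 729 and 891 (0.31). The cytoplasmic beta subunits ranged from -0.17 for Cacnb4 to 0.50 for Cacnb2. All 5 measured members of the gamma group without Cacng1 were positive, with a median of 0.38. These genes encode transmembrane AMPA receptor regulatory proteins. Cacng3 reached the array median in the null library only, and so could be measured only by being higher there. Cacng3 gave 161 and 227 (0.52), Cacng7 gave 402 and 531 (0.42) and Cacng4 gave 719 and 924 (0.38), while Cacng2, or stargazin, was at 591 and 589 (0.017) and Cacng5 at 321 and 324 (0.032). None was beyond 1.5-fold, and the second measured probe sets of Cacng4 and Cacng2 gave -0.49 and -0.18, so the common direction did not hold over all probe sets.

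**Figure D2:**
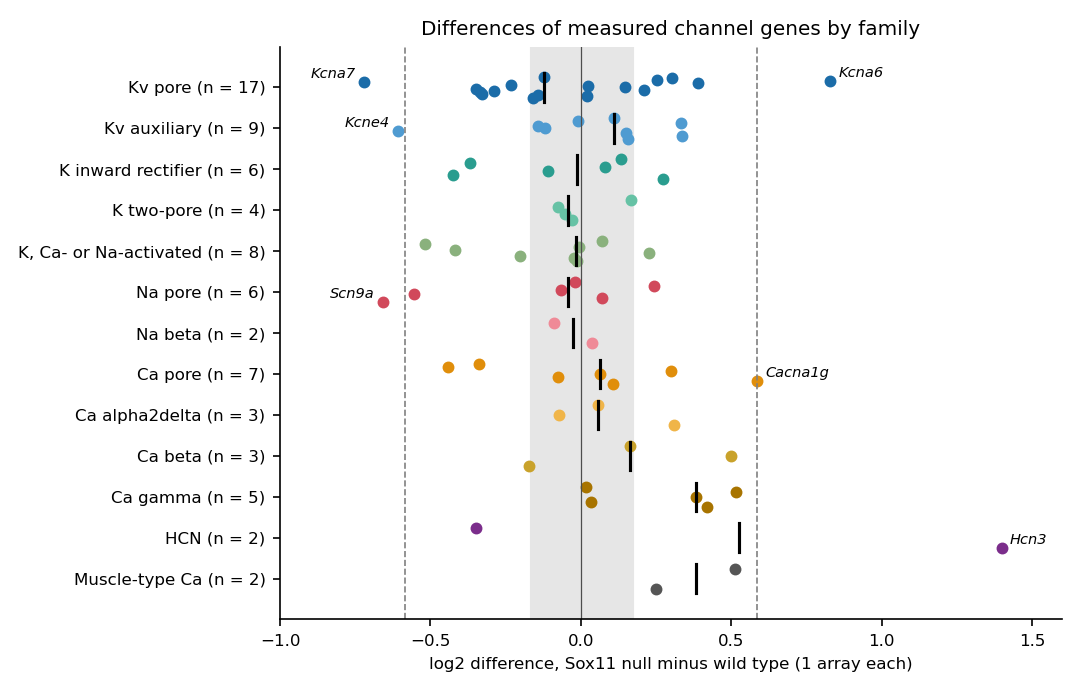
Log2 difference (Sox11 null minus wild type, 1 array each) of each measured channel gene by group, with the group median as a black bar, the 1.5-fold limits dashed and the range between the quartiles of all 12390 measured genes shaded. The 6 labelled genes lie beyond 1.5-fold, and all 5 genes of the calcium gamma group lie above 0 by their brightest probe sets. Of these, Cacng3 could be measured only by being higher in the null library.

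Both HCN genes were measured and they differed in opposite directions. Hcn2, the isoform of thalamus and of much of the brain, gave 284 and 220.0 (-0.35), beside the higher signal of Hcn3. Each rests on 1 probe set. The median of 0.52 over these genes is therefore the midpoint of 2 unlike values.

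The muscle-type calcium channel genes were both higher in the null library, within 1.5-fold. Cacna1s, the voltage sensor of skeletal muscle contraction, gave 265 and 373 (0.51), and Cacng1, its gamma subunit, gave 631 and 740.3 (0.25). The 72 other measured channel genes had a median of 0.0048, with 36 positive and 36 negative. Skeletal muscle markers moved little beside them, with a median of 0.10 over 10 genes, 7 of them positive and none beyond 1.5-fold. Actn3, a Z-disc protein of fast fibres, came nearest at 1191 and 1756 (0.58). Of 12 measured genes of muscle excitation-contraction coupling, 10 were within 1.5-fold and the median was 0.13. Of all measured genes 6.3% were beyond 1.5-fold either way. Stac3, an adaptor needed for Cacna1s function, was beyond 1.5-fold on the higher side with 137 and 219 (0.70). It reached the array median in the null library only, and so could be measured only by being higher there. Trdn, a junctional protein of the calcium store, was beyond 1.5-fold on the lower side with 1001 and 590.2 (-0.74). The release channel Ryr1 was at 1261 and 1334 (0.10). The part of muscle content in the values of Cacna1s, Cacng1 and Kcna7 was not tested. Kcna7 differed in the opposite direction to the muscle-type genes.

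Genes that place, bind or power channels differed little. Of 20 channel partners at the axon initial segment or on the channels themselves, 18 were measured and all were within 1.5-fold, 9 positive, with a median of 0.010. Ank3, the scaffold that gathers sodium channels at the initial segment, gave 5076 and 4704 (-0.090). Dpp6, a partner of Kv4 channels, gave 856 and 994 (0.24), and Nalcn, the sodium leak channel, gave 819 and 796 (-0.021). Of 9 ion pump and transporter genes on the arrays, 7 were measured and all 7 were positive within 1.5-fold, with a median of 0.21. Over all measured genes 50% were positive, and this list was chosen with earlier results of these data known. Slc12a5, the chloride extruder KCC2 of maturing neurons, gave 1107 and 1281 (0.23), and Atp1b2 lay highest at 729 and 984 (0.45). General neuron markers had a median of 0.0087, and all 4 measured cortical projection neuron markers were below 0 (median -0.15).

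**Figure D3:**
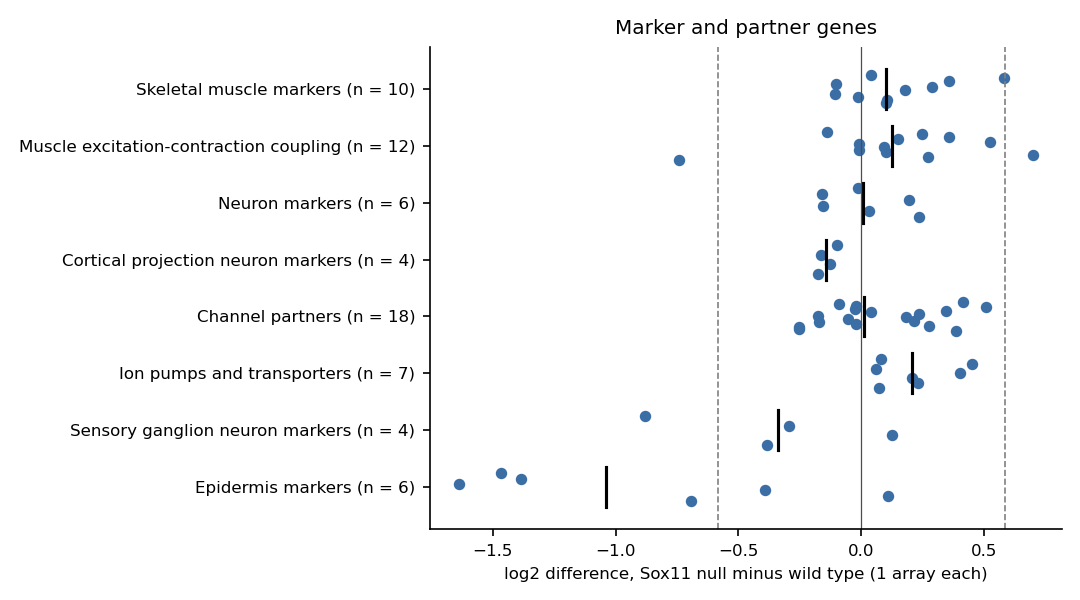
Log2 difference (Sox11 null minus wild type, 1 array each) of the measured genes of marker and partner lists, with the list median as a black bar and the 1.5-fold limits dashed. Channel partners and neuron markers centre near 0, while the medians of sensory ganglion (-0.34) and epidermis markers (-1.04) lie lower. Pou4f1 of the former list (0.12) and Krt5 of the latter (0.11) lie above 0. Avil and Ivl could be measured only by being lower in the null library.

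Probe sets of the same channel gene often gave different sizes. In the 24 channel genes that had more than 1 measured probe set (58 in all), the pooled SD of the differences within a gene was 0.45, against 0.39 over 5155 genes, and in 14 of the 24 (58.3%, against 43.2%) all measured probe sets had the same sign. For Scn2a, the brightest probe set and another gave 0.24 and 0.28, but another gave 222 and 509 (1.22). Scn3b gave 348 and 729 (1.09) with its dimmer probe set. Kcnd2 gave 327 and 553 (0.78) and 135 and 283 (1.08) with its other measured probe sets. Cacna2d1 gave 115 and 191 (0.76) with one, and 51.3 and 283 (2.44) with an _x_at type whose wild-type value lay at the floor. The dimmer probe set of Kcnip1 gave 233 and 369 (0.69).

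All 5 of these genes were within 1.5-fold by their brightest probe set and beyond it, higher in the null library, by a dimmer one. Of 34 measured channel probe sets other than the brightest of their gene, 7 were at least 1.5-fold higher (20.6%) and 0 lower. Over all genes, 13.5% of 8272 such probe sets were higher and 3.8% lower, so dimmer probe sets leaned upward beyond the channel genes too. Both dimmer probe sets of Cacna2d1 and the dimmest of Kcnd2 reached the array median in the null library only, and so could be measured only by being higher there. The beta-actin control had a 3'/5' ratio, a sign of RNA and labelling quality, of 1.78 for the wild type and 1.16 for the null embryo. For the Gapdh control the ratios were closer, at 0.92 and 0.82. The part of RNA quality in these differences was not tested. Channel genes whose measured probe sets went opposite ways have no direction here. Among them are Cacna1a, Cacna1b, Cacna1c, Cacng2, Cacng4, Kcnc1, Kcnh3 and Kcnt1.

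**Figure D4:**
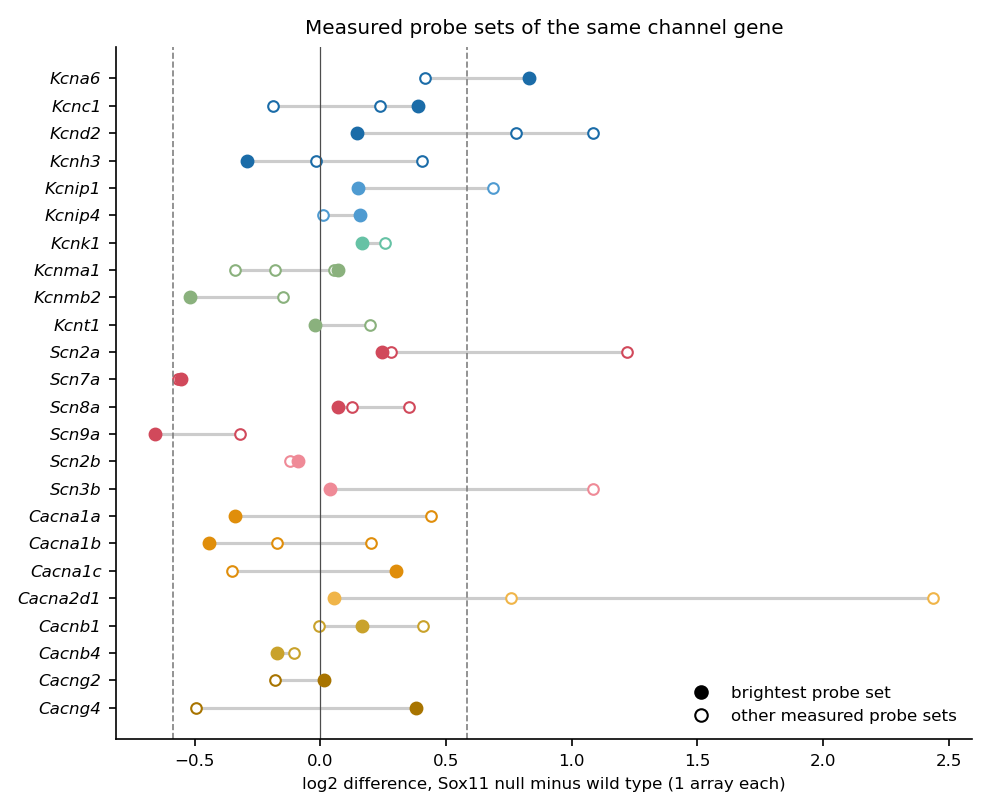
Log2 difference (Sox11 null minus wild type, 1 array each) of each measured probe set of the 24 channel genes with several, the brightest filled and the others open, with the 1.5-fold limits dashed. Scn2a, Scn3b, Kcnd2, Cacna2d1 and Kcnip1 reach beyond the upper limit with a dimmer probe set only, while both probe sets of Scn7a and of Scn2b lie close together.

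The 43 unmeasured channel genes were 36 potassium, 3 sodium and 4 calcium channel genes. They included 9 of the 15 inward rectifiers and 8 of the 12 Kcnk leak channels. Kcnj2, a classical inward rectifier of striated muscle, was at 5.44 and 6.45, and Kcnj12, a related one, at 128 and 120.5. Signals this low give no usable difference, which does not show that the genes were silent. Of the noncoding RNAs, Kcnq1ot1, the imprinted transcript antisense to Kcnq1, was measured with 3 of 6 probe sets. The brightest gave 898 and 944 (0.093) and the others -0.39 and 0.19, so the imprinted RNA had no common direction, while Kcnq1 itself was not measured (74.5 and 25.9).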

How the data were processed

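RNA from 10 ug of total RNA per embryo was turned into biotinylated cRNA and hybridised to 1 array per genotype, per the labels' protocols. The deposited table gives 1 linear signal intensity per probe set and array. Affymetrix Expression Console is named in the submitters' processing notes, and the version, summary algorithm and filters used with it are not stated there. After trimming 2% at each end both deposited arrays had a mean intensity of 500.002. Without 64 control probe sets, 34945 name 1 gene, 932 several and 9160 are unnamed here. Symbols were checked by gene number against a RefSeq table (GRCm38.p6).

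Signals were taken to log2 and the null array was shifted by 0.020, which set the median difference of measured genes to 0. A floor then replaced signals under the 25th percentile of each array (52.9 and 52.5). With 1 array per genotype no test was possible, so genes were counted at 1.5-fold and 2-fold and set beside the same counts over all 12390 measured genes. The members, the lists and the rule for named genes were chosen with earlier results of these data known. The rule takes the muscle-type, HCN and central sodium and calcium pore genes, the sodium beta subunits, every channel gene beyond 1.5-fold, channel genes with measured probe sets at least 1 apart on the log2 scale and the 2 brightest of each potassium group. Other members were named after their values were seen. The functions were tested on simulated data. Work was done in Python 3.11.15 with pandas 2.3.3 and statsmodels 0.14.6. Alternatives changed the centring, the normalization, the floor, the filter and the choice of probe sets.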

Additional observations from a re-analysis of the deposited data

How the results depend on the processing

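Of 69 alternative values of the counts and family medians, 61 stayed close to the reported value. Counts were allowed to change by 1.5 times, and medians by less than the spread between probe sets of a gene. Of 302 values of single genes, 291 stayed within that spread (0.39). It is wider than many of the differences given, so small ones could change sign and still count as unchanged. Cacna1c went from 0.30 to as low as -0.026, and Scn2b from -0.090 to as high as 0.16. No difference beyond 1.5-fold changed sign. The exceptions among counts and medians follow. With no filter on low signals, 5 channel genes were at least 1.5-fold lower and 11 higher among 117. With the filter at the 75th percentile, 0 were lower and 1 higher among 21, and HCN genes gave no median. When all probe sets of a gene were averaged, 5 were higher and the sodium channel median was 0.25, and with the mean over the measured probe sets 5 were higher as well. With the floor at the array median the HCN median was -0.033. Kcna7 and Kcne4 were beyond 1.5-fold in every alternative in which they were measured. Signal over background was not measured here and no detection call was used, so the filter rests on the array median alone. No paired analysis was possible because each genotype has 1 sample, and no replicate could be left out.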
